A study of Mus musculus with 18 samples.

Results

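The 10 matrix metalloproteinase genes described here, Mmp2, Mmp3, Mmp8, Mmp9, Mmp11, Mmp12, Mmp13, Mmp14, Mmp19 and Mmp23, were taken by gene symbol from a table of 65956 transcript clusters, in which 36232 genes are named by a cluster with 1 symbol. Each of the 10 genes had exactly 1 cluster. RNA of the infrarenal aorta of male mice was measured on 18 Mouse Transcriptome Array 1.0 chips, 1 mouse per chip. Normal aorta (n = 5) came from untreated animals. PPE (n = 6) came from aortas in which an aneurysm had been induced with porcine pancreatic elastase, and PPE + Lenva systemic (n = 7) from such aortas of animals that also had lenvatinib, an inhibitor of several receptor tyrosine kinases, at 5 mg/kg daily by oral gavage from day 7 to day 24. Aneurysms were induced at 10 weeks of age and tissue was taken on day 28, so the drug had been stopped 4 days before. The sample labels name ApoE–/– mice for all arrays, whereas the study's methods give wild-type C57BL/6J mice for the elastase model, and the strain is therefore unsettled. The normal aortas had no sham operation, and in comparisons with them the surgery cannot be told apart from the enzyme. Whether the PPE mice were given the drug's vehicle by gavage is not stated.

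Matrix metalloproteinases are zinc-dependent endopeptidases that are made as inactive proenzymes and cleave components of the extracellular matrix. The family holds metalloelastase and stromelysins, gelatinases, collagenases and membrane-anchored enzymes, and its activity is held in check by the tissue inhibitors of metalloproteinases. In the wall of abdominal aneurysms they are best known for the breakdown of elastic fibres and collagen, with macrophages, fibroblasts and smooth muscle cells among their sources.

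All values are log2 signals, so a difference of 1 is a doubling. Signals of single arrays were deposited for 11121 clusters, which had all reached a p of 0.05 or lower in the authors' F test over the 3 groups. Among them were Mmp3, Mmp12, Mmp14 and Mmp19. For the other 6 genes the authors' group averages and SDs were used, which give no view of single animals. All 10 clusters were marked as expressed in all 3 groups, a mark that 83.1% to 85.1% of all clusters carried. A gene was called changed where limma's moderated test gave a Benjamini-Hochberg adjusted p under 0.05 over all 65956 clusters. Array medians over the clusters with such signals lay between 5.45 and 5.66, and the labels give no scan date or batch. RNA integrity numbers, a measure of RNA quality, were given only as a range over all samples, 5.7 to 9.8. Their part in group differences was not tested. The number of arrays limits the precision.

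Elastase-injected aortas carried more Mmp12 and Mmp3 RNA than normal aortas, and none of the 10 genes was called lower. Mmp12, macrophage metalloelastase, was 10.8-fold higher in PPE, and Mmp3, stromelysin-1, a broad-spectrum enzyme that also activates other proenzymes of the family, was 4.99-fold higher. Thus 2 of 10 genes were called higher in PPE vs. normal aorta, where 1.41% of all clusters were called higher and 4.03% were called in either direction. Of the 36232 genes named by a cluster with 1 symbol, 2.15% were called higher and 2.12% lower. The difference was above 0 for 9 of the 10 genes, with a median of 0.54 against -0.02 over all clusters. In bulk tissue, more cells of a type and more RNA per cell cannot be told apart.

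Mmp12 lies on chromosome 9 (mm10, chr9:7344381-7369499, plus strand). Its log2 signals were 7.08, 5.3, 4.92, 6.63 and 7.91 in the 5 normal aortas. In PPE they ranged from 9.09 to 10.94 with a median of 9.76, and in PPE + Lenva systemic from 8.8 to 13.28 with a median of 9.65. No normal aorta reached the lowest elastase-injected aorta of either group, whereas the PPE and PPE + Lenva systemic ranges overlapped. The clusters with signals of single arrays were selected by the F test over these groups, which favours such separation. The share of clusters separated in the same way was not computed. The log2 fold change in PPE vs. normal aorta was 3.44 ± 0.71 (SE; 95% CI 1.94 to 4.93; adjusted p = 0.0111, limma).

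Mmp3 lies about 101.4 kb further along the same chromosome (chr9:7445822-7455975, plus strand). Its signals were 11.57, 8.98, 9.45, 11.23 and 10.32 in normal aorta, 11.13 to 13.76 with a median of 12.78 in PPE, and 11.16 to 13.39 with a median of 12.81 in PPE + Lenva systemic. Of the 6 PPE arrays, 5 lay above every normal aorta, and the remaining one lay below the 2 highest normal aortas. The log2 fold change in PPE vs. normal aorta was 2.32 ± 0.57 (SE; 95% CI 1.13 to 3.51; adjusted p = 0.0288, limma). This call was lost, with adjusted p between 0.0633 and 0.0867, when normal aorta replicate 2 or 3 or PPE replicate 1, 3 or 4 was left out with limma, although the log2 fold change stayed at 1.99 or more.

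**Figure D1:**
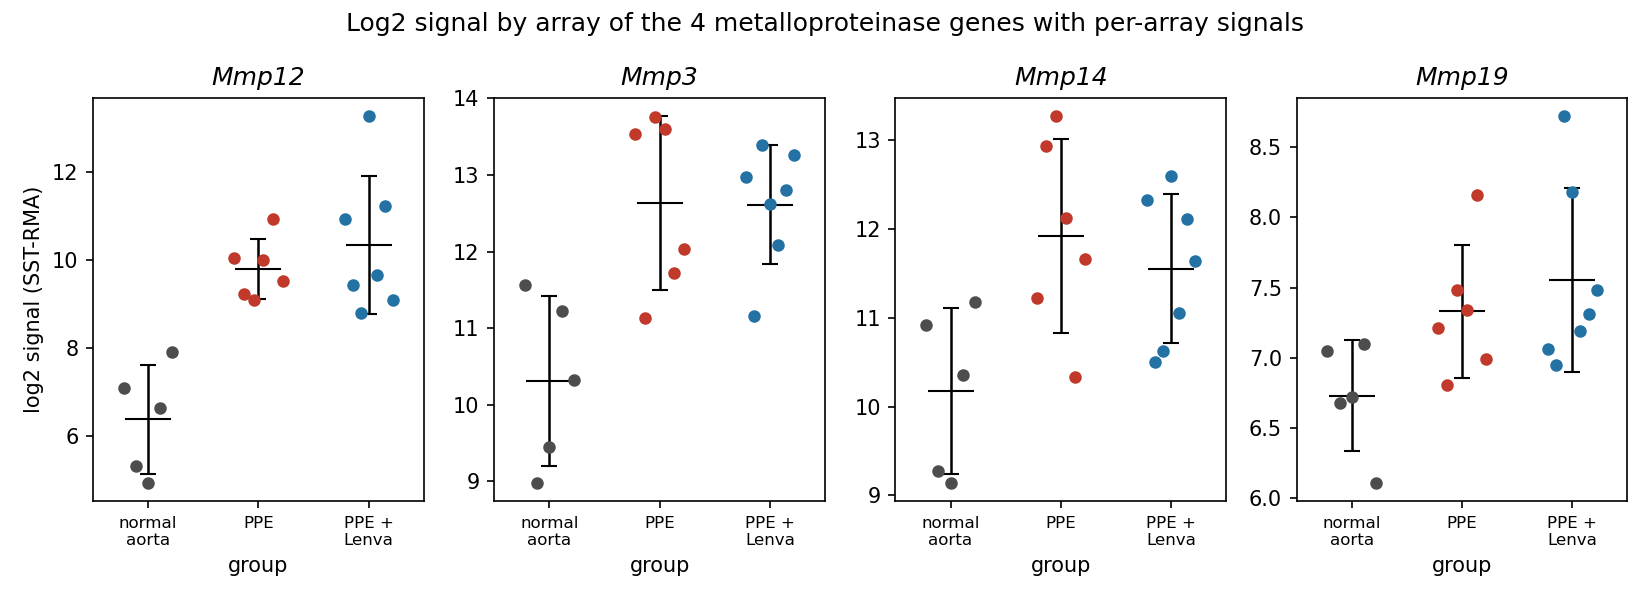
Log2 signal (SST-RMA, y axis) of Mmp12, Mmp3, Mmp14 and Mmp19 in each group, with 1 point per array, the group mean as a horizontal line and the SD as error bar; each panel has its own scale. For Mmp12 every array of PPE and PPE + Lenva systemic lies above the highest normal aorta at 7.91, whereas the groups overlap for the other 3 genes. The clusters shown were selected by the F test over these groups.

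Mmp14 encodes the membrane-anchored MT1-MMP, which cleaves fibrillar collagen at the cell surface and activates the proenzyme of Mmp2. Its signals (chr14:54431604-54441264, plus strand) were 10.92, 9.27, 9.14, 10.35 and 11.18 in normal aorta, 10.33 to 13.27 with a median of 11.89 in PPE, and 10.5 to 12.6 with a median of 11.64 in PPE + Lenva systemic. Of the 6 PPE arrays, 5 lay above all normal aortas, while PPE replicate 5, at 10.33, lay within the normal range. The log2 fold change in PPE vs. normal aorta was 1.75 ± 0.54 (SE; 95% CI 0.61 to 2.89), 3.37-fold, and missed the threshold (adjusted p = 0.0785, limma). Leaving out each array in turn gave log2 fold changes from 1.48 to 2.07 and adjusted p from 0.0276, without PPE replicate 5, to 0.19, without normal aorta replicate 3 (limma).

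Mmp19, a secreted enzyme that cleaves basement membrane proteins, was not called (chr10:128790910-128800824, plus strand). Its signals were 7.05, 6.68, 6.72, 7.1 and 6.11 in normal aorta, 6.81 to 8.16 with a median of 7.28 in PPE, and 6.95 to 8.72 with a median of 7.31 in PPE + Lenva systemic. The groups overlapped, with 4 of 6 PPE arrays above all normal aortas. The log2 fold change in PPE vs. normal aorta was 0.60 ± 0.31 (SE; adjusted p = 0.312, limma). The cluster shares 2736 bases with the neighbouring gene Tmem198b.

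The gelatinases, which digest denatured collagen and basement membrane collagen, were not called. Mmp2, gelatinase A, on chromosome 8 (chr8:92827328-92853420, plus strand), had deposited averages of 12.68 ± 0.89 in normal aorta, 13.58 ± 1.02 in PPE and 13.02 ± 0.51 in PPE + Lenva systemic (SD; n = 5, 6 and 7). The difference in PPE vs. normal aorta was 0.90 ± 0.46 (SE; 95% CI -0.07 to 1.87; adjusted p = 0.317, limma). Mmp9, gelatinase B, on chromosome 2 (chr2:164940780-164955850, plus strand), had averages of 4.41 ± 0.15, 4.45 ± 0.27 and 4.23 ± 0.17 in the same order. Its difference in PPE vs. normal aorta was 0.04 ± 0.12 (SE; adjusted p = 0.928, limma), with a 95% CI from -0.21 to 0.29. The averages of Mmp9, like those of Mmp8, Mmp11 and Mmp13 below, stood under every array median given above (5.45 to 5.66). At such low signals a narrow interval is weak evidence that the RNA was unchanged.

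The collagenases cleave intact fibrillar collagen. Mmp13, collagenase-3, stands at the head of the chromosome 9 gene cluster (chr9:7272514-7283333, plus strand), and its deposited average was 4.25 ± 0.24 in normal aorta, 4.74 ± 0.78 in PPE and 5.33 ± 1.16 in PPE + Lenva systemic. The SD of Mmp13 was thus larger in both elastase-injected groups than in normal aorta. Its difference in PPE vs. normal aorta was 0.49 ± 0.49 (SE; adjusted p = 0.691, limma). Mmp8, neutrophil collagenase (chr9:7558429-7568486, plus strand), averaged 3.81 ± 0.17, 3.83 ± 0.13 and 3.92 ± 0.2, a difference of 0.02 ± 0.10 (SE; adjusted p = 0.964, limma) in PPE vs. normal aorta. Its cluster lies wholly within the RefSeq span of the long noncoding RNA gene Gm31751.

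Mmp11, stromelysin-3 (chr10:75923222-75932502, minus strand), averaged 4.32 ± 0.1 in normal aorta, 4.54 ± 0.28 in PPE and 4.49 ± 0.15 in PPE + Lenva systemic. Mmp23, whose proenzyme is anchored in the membrane by its amino terminus (chr4:155650655-155653384, minus strand), averaged 7 ± 0.28, 6.95 ± 0.16 and 6.98 ± 0.14. The differences in PPE vs. normal aorta were 0.22 ± 0.11 for Mmp11 and -0.05 ± 0.11 for Mmp23 (SE), with adjusted p of 0.323 and 0.894 (limma).

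**Figure D2:**
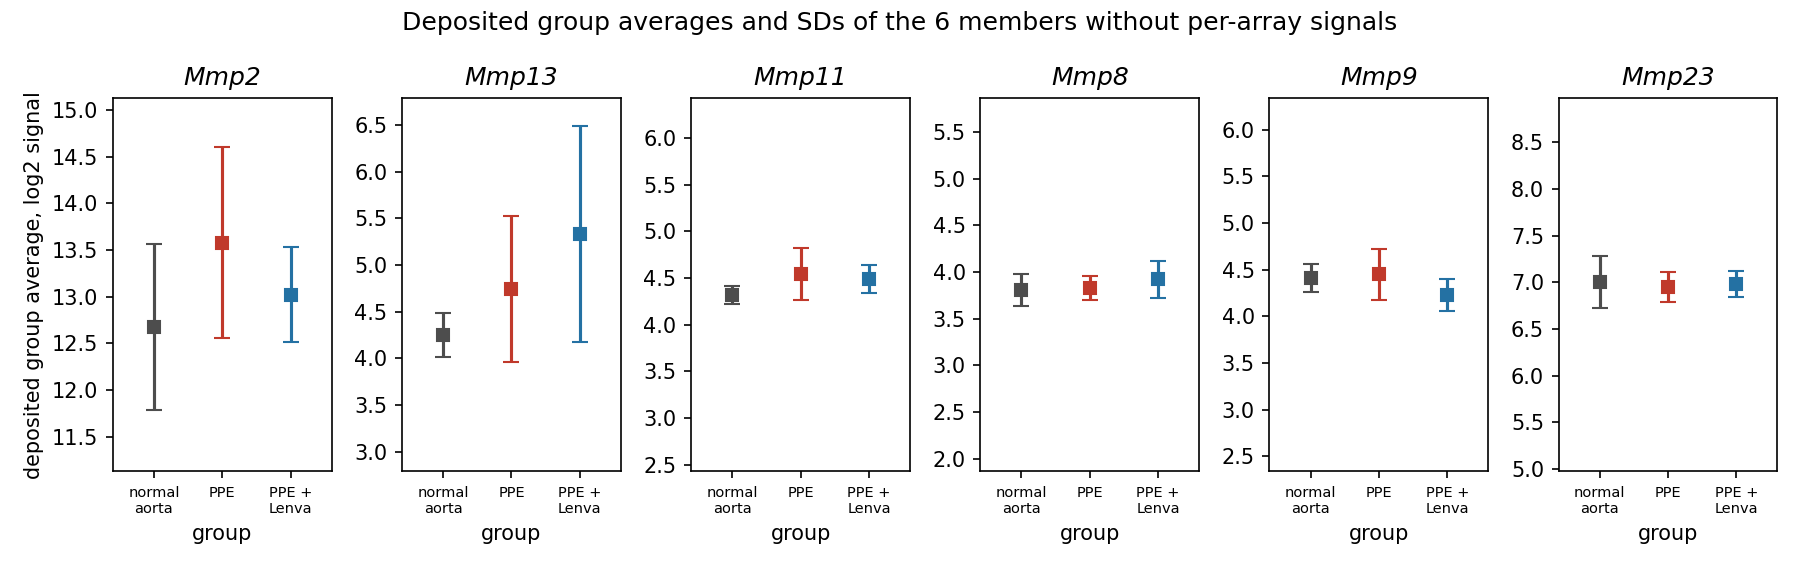
Deposited group average of the log2 signal (y axis, the same span of 4 log2 units in each panel) with its SD, for the 6 genes without signals of single arrays, in normal aorta (n = 5), PPE (n = 6) and PPE + Lenva systemic (n = 7). Mmp2 and Mmp13 spread widest, with an SD of up to 1.02 and 1.16, and Mmp8, Mmp9, Mmp11 and Mmp23 stay within a narrow range.

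In PPE + Lenva systemic vs. PPE none of the 10 genes was called, nor was any of the 65956 clusters (0%), and none of the 10 had an unadjusted p under 0.05, which 5.81% of all clusters had (limma). Mmp12 was 0.54 higher on the log2 scale in PPE + Lenva systemic, with a 95% CI from -0.83 to 1.92, and Mmp3 differed by -0.02 (95% CI -1.11 to 1.08). Of the Mmp12 difference most rested on 1 array, PPE + Lenva systemic replicate 4 at 13.28, without which it was 0.05. Mmp14 differed by -0.37 (95% CI -1.42 to 0.68) and Mmp19 by 0.22 (95% CI -0.37 to 0.81).

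Among the other genes, Mmp2 was -0.56 (95% CI -1.46 to 0.34) and Mmp13 0.59 (95% CI -0.37 to 1.55) in PPE + Lenva systemic vs. PPE. Mmp9 had the smallest unadjusted p of the 10 genes, 0.061 (limma), at a difference of -0.22 (95% CI -0.45 to 0.01; adjusted p = 0.878). For Mmp8, Mmp11 and Mmp23 the differences were 0.09, -0.05 and 0.03, and their intervals all lay between -0.27 and 0.29. For Mmp12, Mmp3, Mmp14, Mmp2 and Mmp13 the intervals leave room for a change of 2-fold in at least 1 direction.

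PPE + Lenva systemic vs. normal aorta called the same 2 genes, both higher, where 2.77% of all clusters were called higher and 6.1% in either direction. Of genes named by a cluster with 1 symbol, 4.24% were called higher and 2.78% lower in this comparison. Mmp12 was 15.8-fold higher, a log2 fold change of 3.98 ± 0.69 (SE; adjusted p = 0.00292, limma). All 7 treated arrays lay above all 5 normal aortas, a separation that the selection by the F test favours. With the deposited averages the Mmp12 log2 fold change was 3.43, and leaving out each array in turn gave 3.49 to 4.365. Mmp3 was 4.94-fold higher, a log2 fold change of 2.30 ± 0.55 (SE; adjusted p = 0.0198, limma), with 6 of 7 treated arrays above all normal aortas. Without normal aorta replicate 2 or 3, limma's adjusted p for Mmp3 became 0.0632 and 0.0638, at log2 fold changes of 1.97 and 2.09.

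Mmp14, Mmp19 and Mmp13 were 1.38, 0.82 and 1.08 higher on the log2 scale in PPE + Lenva systemic vs. normal aorta, with adjusted p of 0.131, 0.11 and 0.209 (limma). Unadjusted, 5 of the 10 genes had p under 0.05 in this comparison, which 19.7% of all clusters had (limma). This comparison and PPE vs. normal aorta share the 5 normal aortas, and both comparisons with PPE share its 6 arrays, so they are not independent.

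**Figure D3:**
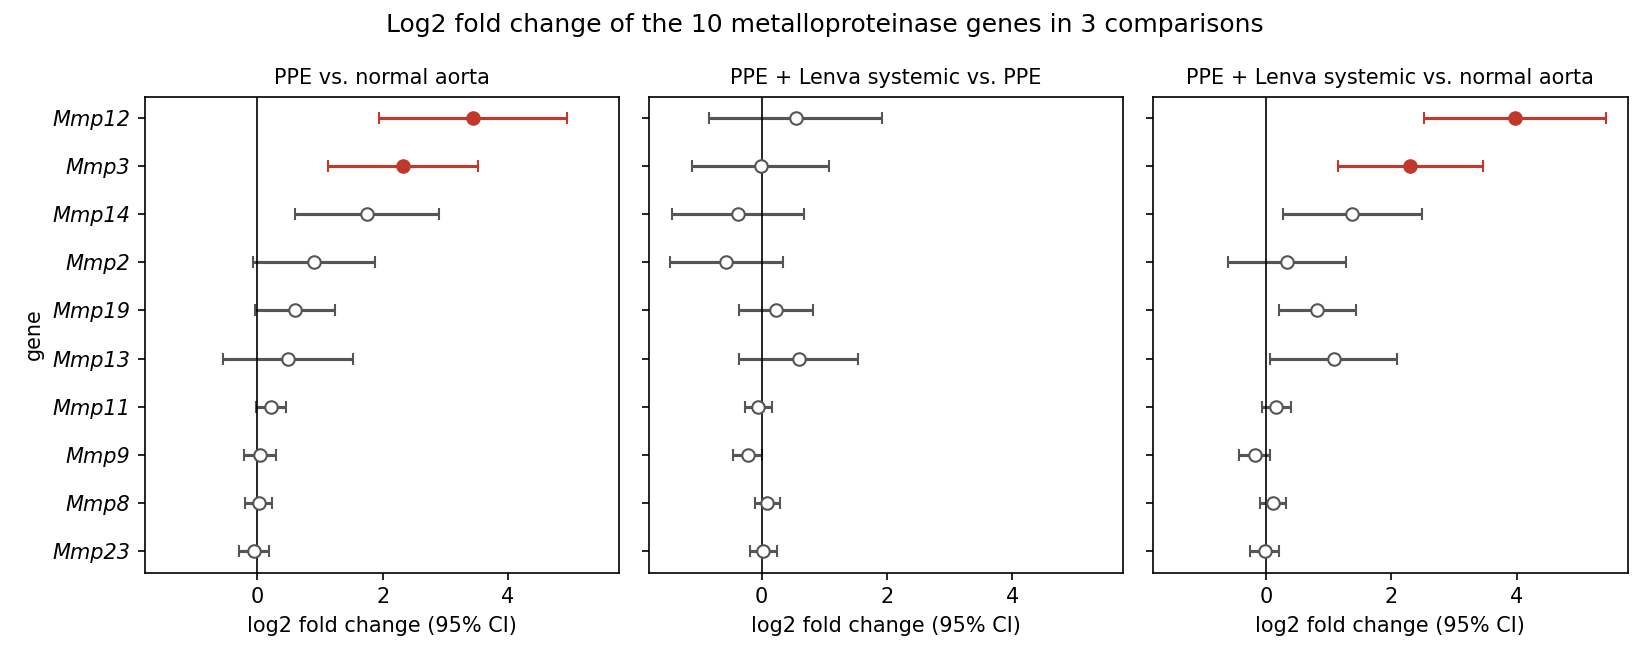
Log2 fold change (x axis) with its 95% CI for each of the 10 genes (y axis) in PPE vs. normal aorta, PPE + Lenva systemic vs. PPE and PPE + Lenva systemic vs. normal aorta; filled red points have an adjusted p under 0.05. Only Mmp12 and Mmp3 are filled, in the first and the third panel, at 3.44 and 2.32 and at 3.98 and 2.30.

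The order of group means was normal aorta, PPE, PPE + Lenva systemic for Mmp12 (6.37 ± 1.24, 9.8 ± 0.68 and 10.35 ± 1.58, SD) and Mmp19 (6.73 ± 0.4, 7.33 ± 0.47 and 7.56 ± 0.65, SD), and the step from PPE to PPE + Lenva systemic was within the spread for both. For Mmp14 the order was normal aorta, PPE + Lenva systemic, PPE (10.17 ± 0.93, 11.55 ± 0.84 and 11.92 ± 1.09, SD), and for Mmp3 both elastase-injected groups stood close together (12.63 ± 1.14 in PPE and 12.61 ± 0.77 in PPE + Lenva systemic, against 10.31 ± 1.11 in normal aorta, SD). Lenvatinib-treated aortas thus did not differ detectably from PPE in any of these genes at this number of animals.

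Both called genes belong to a run of 10 metalloproteinase genes on chromosome 9 that spans 427 kb and holds Mmp13, Mmp12, Mmp1b, Mmp3, Mmp1a, Mmp10, Mmp8, Mmp27, Mmp20 and Mmp7 in this order. The other 8 genes of the run had log2 differences between -0.16 and 0.49 in PPE vs. normal aorta, none called. Their deposited averages all stood below the array medians of 5.45 to 5.66, where a narrow interval is weak evidence that the RNA was unchanged. Mmp1b and Mmp1a, the neighbours between and beside the called genes, are named as interstitial collagenases in the mouse. They had deposited averages of 3.73 and 3.46 in normal aorta and 3.79 and 3.41 in PPE. Their differences were 0.06 (95% CI -0.04 to 0.16) and -0.05 (95% CI -0.15 to 0.05). The Mmp12 cluster overlaps Mmp1b by 1830 bases at its end.

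**Figure D4:**
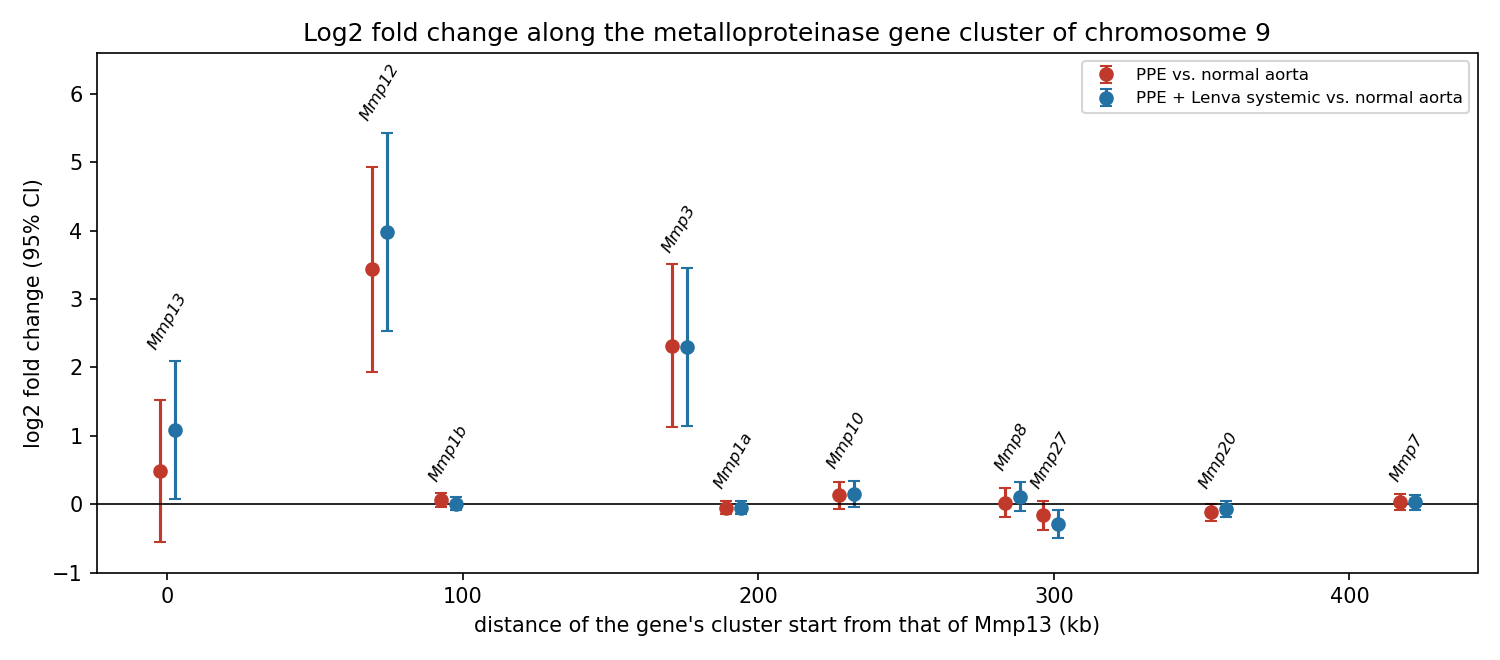
Log2 fold change (y axis) with its 95% CI of the 10 metalloproteinase genes of chromosome 9 against the distance of each cluster's start from that of Mmp13 (x axis, kb), in PPE vs. normal aorta (red) and PPE + Lenva systemic vs. normal aorta (blue). Mmp12 and Mmp3 stand at 3.44 and 2.32 in the red series, between neighbours whose values lie from -0.16 to 0.49. The averages of these neighbours stood below the array medians, so their narrow intervals are weak evidence of no change.

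Promoter sequence was examined because metalloproteinase genes are textbook targets of AP-1, the Fos and Jun dimers that bind TGAGTCA and its reverse complement TGACTCA. RefSeq promoters (GRCm38.p6, 250 bases before to 50 bases after a start site) were given for 7 of the 10 genes. The AP-1 letters stood in those of Mmp3, Mmp12 and Mmp13, against 5.2% of 32851 promoters of the same length. The 100 bases just before the start site are shown for Mmp12, which has 2 start sites, for Mmp3, for their neighbour Mmp13 and, without the letters, for Mmp8. They are written 5′ to 3′ on the coding strand with the AP-1 letters in capitals.
Mmp12, upstream start (chr9:7344297-7344396): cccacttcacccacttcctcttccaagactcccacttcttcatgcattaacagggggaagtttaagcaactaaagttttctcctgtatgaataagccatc
Mmp12, downstream start (chr9:7347274-7347373): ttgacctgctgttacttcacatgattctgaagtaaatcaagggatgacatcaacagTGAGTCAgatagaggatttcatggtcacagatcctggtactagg
Mmp3 (chr9:7445722-7445821): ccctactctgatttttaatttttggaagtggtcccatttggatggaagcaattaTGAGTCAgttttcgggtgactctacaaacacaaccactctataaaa
Mmp13 (chr9:7272414-7272513): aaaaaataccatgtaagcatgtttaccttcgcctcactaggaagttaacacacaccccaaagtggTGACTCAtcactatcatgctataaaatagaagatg
Mmp8 (chr9:7558329-7558428): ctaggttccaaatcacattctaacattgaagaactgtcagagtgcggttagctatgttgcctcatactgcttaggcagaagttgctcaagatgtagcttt
The first base of the AP-1 letters stood at position -44 of the downstream Mmp12 start, at -46 in Mmp3 and at -35 in Mmp13. In the same window the Runx letters AACCACA or their reverse complement TGTGGTT stood only in Mmp13 among the 7 genes, at position -119, outside the stretch shown, against 5.27% of all promoters. Along the run of 10 genes, 7 had the AP-1 letters, namely the called Mmp12 and Mmp3 and 5 genes that were not called, Mmp13, Mmp1b, Mmp1a, Mmp10 and Mmp7. A match of letters is a description of the sequence and not of binding.

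The 13 other metalloproteinase genes on the array held no gene called higher and 1 called lower in PPE vs. normal aorta, with a median difference of -0.03. Of all genes, 2.15% were called higher and 2.12% lower there. Both this list and the genes described above were chosen with earlier results of these data known, so the contrast between them tests nothing. The gene called lower was Mmp16, a membrane-type enzyme, whose deposited averages were 4.91 in normal aorta, 4.33 in PPE and 4.4 in PPE + Lenva systemic (log2 fold change -0.50 ± 0.06 SE, adjusted p = 0.000141, limma). These averages, like those of all 13 genes, stood below the array medians of 5.45 to 5.66, where changes are hard to see. Mmp25, a membrane-type enzyme of leukocytes, had 0.43 ± 0.17 (SE; adjusted p = 0.151, limma).

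Of 7 genes for inhibitors of the family, 2 were called lower and none higher in PPE vs. normal aorta, where 2.12% of all genes were called lower and 2.15% higher. Timp4, a tissue inhibitor of metalloproteinases, fell by 1.07 on the log2 scale (adjusted p = 0.0283, limma), and Reck, a membrane-anchored inhibitor of several members, fell by 0.87 (adjusted p = 0.026). Timp1 had a log2 fold change of 2.70 ± 0.78 (SE; adjusted p = 0.0614, limma) in PPE vs. normal aorta and was called in PPE + Lenva systemic vs. normal aorta at 3.70 ± 0.75 (SE; adjusted p = 0.00869). Timp2 and Timp3 had differences of 0.06 and -0.17 in PPE vs. normal aorta.

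Of 13 genes for activation and partners, 2 were called higher and 1 lower in PPE vs. normal aorta, against the 2.15% and 2.12% of all genes given above. Plau, urokinase, which generates plasmin, rose by 1.38 (adjusted p = 0.0191, limma), Cd44, a hyaluronan receptor that docks Mmp9 and Mmp14 at the cell surface, rose by 1.66 (adjusted p = 0.026), and Pcsk5, a proprotein convertase, fell by 1.11 (adjusted p = 0.000397). In PPE + Lenva systemic vs. normal aorta, where 4.24% of all genes were called higher and 2.78% lower, 5 were called higher, Plau, Cd44, Plaur, Lcn2 and Thbs1, and Pcsk5 was again lower. Thbs1, thrombospondin-1, had 3.66 there and 3.20 (adjusted p = 0.0683, limma) in PPE vs. normal aorta. Plaur is the urokinase receptor and Lcn2 a lipocalin that forms a complex with Mmp9; they stood at 0.99 and 1.79, against 0.36 and 1.14 in PPE vs. normal aorta. The differences between these comparisons were not tested.

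None of 12 substrate genes was called in PPE vs. normal aorta, and Eln, which encodes elastin, had a difference of -0.52 ± 0.43 (SE; adjusted p = 0.599, limma). Mfap4, a microfibril-associated protein, was called lower only in PPE + Lenva systemic vs. normal aorta, at -1.92 (adjusted p = 0.0265), against -1.36 (adjusted p = 0.133) in PPE vs. normal aorta. The difference between these comparisons was not tested.

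Among 14 AP-1 genes and other inducers, Ets1, a transcription factor, was called higher at 0.49 (adjusted p = 0.0354, limma) and Fosb, an AP-1 subunit, lower at -0.35 (adjusted p = 0.0284) in PPE vs. normal aorta. Of all genes, 2.15% were called higher and 2.12% lower there. Fos and Jun had differences of -0.71 and -0.69 (adjusted p = 0.138 and 0.0623). In PPE + Lenva systemic vs. normal aorta 3 were called higher, the cytokines Il1b at 3.17 and Tnf at 1.40 and the myeloid factor Spi1 at 1.48, and Fosb was lower, against the 4.24% and 2.78% of all genes given above. In PPE vs. normal aorta these 3 had 2.31, 0.75 and 1.37 (adjusted p = 0.115, 0.161 and 0.0617, limma), and the differences between the comparisons were not tested. In PPE + Lenva systemic vs. PPE no gene of these 5 lists was called.

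Macrophage markers were higher in the same comparisons as Mmp12 and Mmp3. Of 12 markers, 9 were called higher in PPE vs. normal aorta, among them Cd68 at 3.43 and Adgre1 at 2.85, with a median over the list of 2.11. Of all genes, 2.15% were called higher and 2.12% lower in this comparison, which is also the background of the other marker counts below. Cd163, a scavenger receptor of resident macrophages, had -0.71 (adjusted p = 0.0613, limma) in this comparison, and in PPE + Lenva systemic vs. normal aorta it was called lower at -1.22 (adjusted p = 0.00196) while the other 11 were called higher. There 4.24% of all genes were called higher and 2.78% lower. The mean log2 signal of the 12 markers ranged from 8.2 to 10.22 in normal aorta, from 10.43 to 12.28 in PPE and from 10.5 to 12.18 in PPE + Lenva systemic. Normal aorta replicates 2 and 3, the lowest in Mmp3, Mmp12 and Mmp14, were also the lowest in these markers, at 8.47 and 8.2. No marker of the 11 for neutrophils, the known source of Mmp8 and a source of Mmp9, was called higher in PPE vs. normal aorta, and 1, Ngp, was lower at -0.37. Of 10 contractile smooth muscle markers 5 were called lower, with a median of -1.03, and of 9 fibroblast markers none was called. Of 7 endothelial markers 4 were called lower, with a median of -1.22. Of 5 T cell markers 1 was called higher, Cd4 at 1.35, with a median of 0.98, and of 5 B cell markers 1, Jchain at 3.47. The mast cell, osteochondral and lymphatic endothelial lists each had 1 call, Kit at -0.92, Spp1 at 5.40 and Pdpn at 1.41, and the osteoclast, adipocyte, mesothelial and nerve lists had none. The mean log2 signal of the 9 smooth muscle markers with signals of single arrays, which define the labelled tissue, ranged from 10.72 to 12.41 in normal aorta, from 9.87 to 10.39 in PPE and from 9.66 to 11.69 in PPE + Lenva systemic. The part of cell content in the differences above was not tested.

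Within the elastase-injected groups, 36 relations were computed by array, between the 4 genes and between each gene and the mean of the macrophage, fibroblast and contractile smooth muscle markers. The means covered only markers with signals of single arrays, which the F test had selected. These were 12 of 12 macrophage, 4 of 9 fibroblast and 9 of 10 smooth muscle markers, so the fibroblast mean does not stand for its whole list. Mmp14 followed the macrophage markers most closely, with r = 0.98 and Spearman's rho = 0.89 over the 7 PPE + Lenva systemic arrays (exact permutation p = 0.00119 and 0.0123, adjusted over 36 relations 0.0429 and 0.286). Without the 2 arrays farthest from the median of Mmp14, r was 0.95. Over the 6 PPE arrays r was 0.80 and rho 0.77 (exact permutation p = 0.0597 and 0.103, adjusted 0.358 and 0.529), and r without the 2 farthest arrays was 0.43. Against the contractile smooth muscle markers Mmp14 had r = -0.81 and rho = -0.86 in PPE + Lenva systemic (exact permutation p = 0.0274 and 0.0238, adjusted 0.246 and 0.286). In PPE these were -0.41 and -0.43 (exact permutation p = 0.458 and 0.419, adjusted 0.825 and 0.853). For Mmp12 and the macrophage markers r was -0.60 and rho -0.54 in PPE (exact permutation p = 0.211 and 0.297, adjusted 0.57 and 0.823), and 0.77 and 0.79 in PPE + Lenva systemic (exact permutation p = 0.0393 and 0.048, adjusted 0.283 and 0.346), with r of 0.31 and 0.73 without the 2 arrays farthest from the median of Mmp12. No relation other than that of Mmp14 with the macrophage markers in PPE + Lenva systemic had an adjusted p under 0.05.

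Mmp12 and Mmp14 ran opposite ways among the 6 PPE arrays (r = -0.92, rho = -0.94, exact permutation p = 0.00833 and 0.0167, adjusted 0.15 and 0.286; r = -0.71 without the 2 farthest arrays). Among the 7 PPE + Lenva systemic arrays they ran together (r = 0.83, rho = 0.79, exact permutation p = 0.0173 and 0.048, adjusted 0.207 and 0.346; r = 0.74 without the 2 farthest arrays). PPE replicate 5 was the highest PPE array in Mmp12 at 10.94 and the lowest in Mmp14 at 10.33. Neither relation passed after adjustment over the family, and the difference between the groups was not tested.

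**Figure D5:**
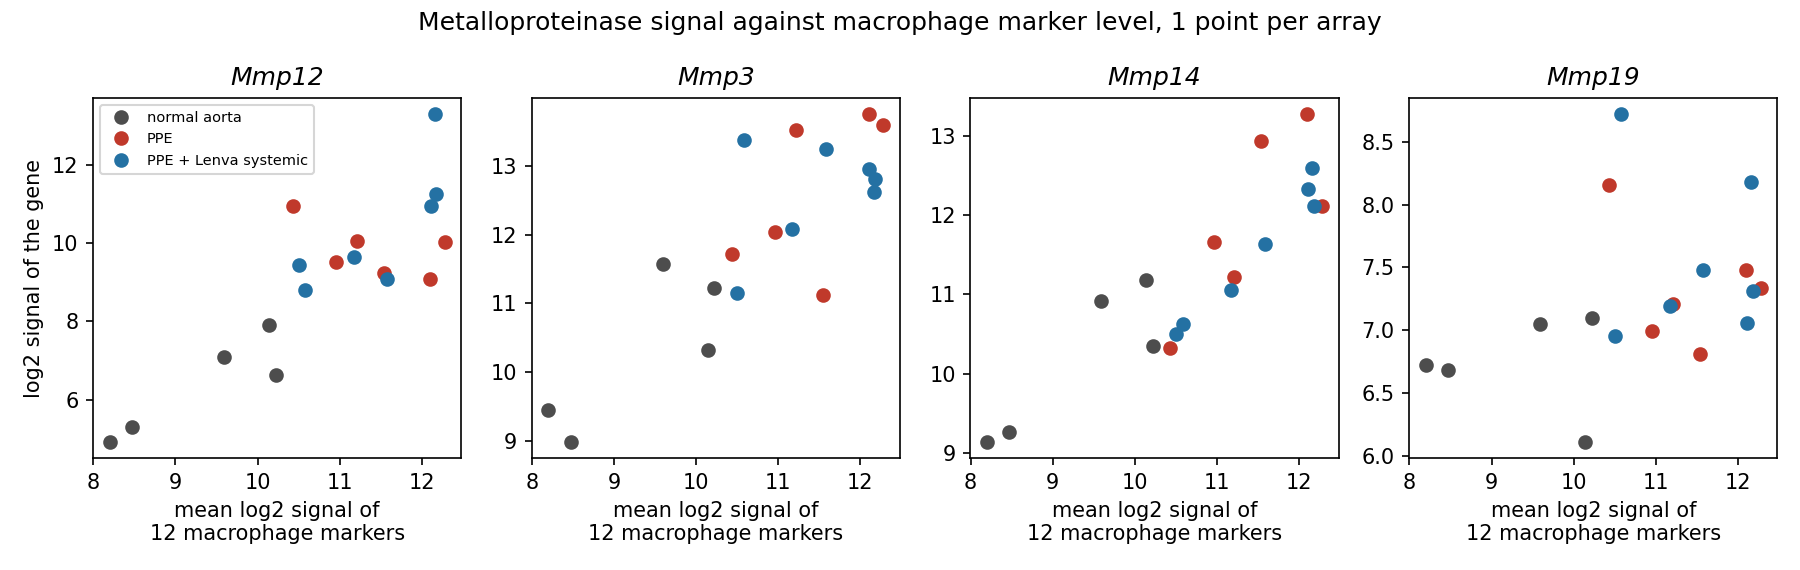
Log2 signal of Mmp12, Mmp3, Mmp14 and Mmp19 (y axis) against the mean log2 signal of 12 macrophage markers (x axis), with 1 point per array, coloured by group. The normal aortas lie at the left, from 8.2 to 10.22 on the x axis. On the y axis they lie below all other arrays only for Mmp12 and overlap them for Mmp3, Mmp14 and Mmp19. Mmp14 rises with the markers within PPE + Lenva systemic (r = 0.98).

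Genes whose signals ran most like each of the 4 over all 18 arrays were sought after subtracting group means, among 5133 named genes with signals of single arrays. Mmp14 ran closest to Myo7a, an unconventional myosin (r = 0.95, rho = 0.959), and Ppp1r21 (r = 0.935, rho = 0.926). Mmp3 ran closest to Bmper, a secreted regulator of bone morphogenetic proteins (r = 0.831, rho = 0.853), and to the complement gene C2 (r = 0.807, rho = 0.831). Mmp12 ran closest to Cd84, a receptor of leukocytes (r = 0.807, rho = 0.822), and Tm4sf19 (r = 0.804, rho = 0.635), and Mmp19 to Rhbdl1 (r = 0.824, rho = 0.775) and Cyp4b1-ps1 (r = 0.775, rho = 0.798). Among the 4 genes themselves these correlations lay between -0.243 and 0.435, with Mmp12 and Mmp14 at 0.435. They are descriptions over arrays that share a normalization, and these genes were compared only within the clusters selected by the F test.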

How the data were processed

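RNA of 18 aortas was hybridised to Mouse Transcriptome Array 1.0 chips. The authors made log2 signals with Transcriptome Analysis Console 4.0.1.36 (SST-RMA method, build mm10; tool and build per the submitters' processing notes). Deposited were log2 signals by array for 11121 clusters, all with an F test p of 0.05 or less, and other group values for 65956 clusters, the averages and SDs on the log2 scale. Over the 11121 clusters with signals of single arrays, the deposited SDs are plain SDs, but 13.28% of the deposited averages differ by over 0.1 from the plain mean. Neither was checked for the other clusters. The authors' fold changes and p-values in these tables were not used. No column lacked a sample (0 of the per-sample columns).

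Groups came from the sample labels. Differences were tested in R 4.3.3 by limma 3.58.1 on all 3 groups in 1 fit, without covariates. Clusters without per-array signals entered with the same moderated statistic from the deposited averages and SDs. The variance prior (2.14 degrees of freedom) and the Benjamini-Hochberg adjustment ran over all 65956 clusters. The procedure was tested on simulated data. Relations had two-sided exact permutation tests in Python 3. Those planned for single genes are not used in the report, since the authors' F test had selected the genes with signals of single arrays. Promoters are RefSeq's of GRCm38.p6.

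The 10 genes, all described, and the other lists were chosen with earlier results of these data known. Of other lists, called genes were named, and otherwise up to 6 per list. For likeness 2 genes per member were named. Replicates are separate mice, and no 2 arrays correlated above 0.991. Alternatives covered the arrays in the fit, scaling, variance model, array weights, dim clusters, clusters with 1 symbol, thresholds, each array left out in turn and a replicate block.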

Additional observations from a re-analysis of the deposited data

How the results depend on the processing

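Over the alternatives, 450 of 471 values of the 10 genes kept their direction and their side of the threshold. That share overstates the stability, because many of these values had little or no room to change. The 6 genes without signals of single arrays were counted only under alternatives that reuse their deposited averages, so their log2 fold changes were fixed. For the other 4, leaving out an array of a group not compared left the log2 fold change as it was. Mmp12 was called in PPE vs. normal aorta and in PPE + Lenva systemic vs. normal aorta under every alternative run. Of the 2 genes called in PPE vs. normal aorta, 1 was left with only the 2 groups compared (Mmp3 adjusted p = 0.0629) and 1 without moderation of the variance (0.0527), and leaving out each array gave 1 to 3. Mmp14 was called with array weights (0.0307) and without dim clusters (0.0491). In PPE + Lenva systemic vs. normal aorta leaving out each array gave 1 to 2 genes, and in PPE + Lenva systemic vs. PPE it gave 0. The 4 genes with signals of single arrays were selected by an F test over these groups, so exact permutation tests of them are conditioned on the outcome and support nothing; 4 of 4 had p under 0.05 in both comparisons with normal aorta, 2 to 4 without each array, and 0 in PPE + Lenva systemic vs. PPE. The difference of Mmp3 in PPE + Lenva systemic vs. PPE changed sign around 0, at 0.04 with quantile normalization, 0.11 with the deposited averages, 0.029 with array weights and -0.316 to 0.227 without each array. The causes were not tested. Replicate numbers in the titles did not pair samples: 6 of 16 same-numbered pairs correlated above 0.1 and 2 of 18 arrays best with their own number. With the numbers as a replicate block, 2, 0 and 2 genes were called in the 3 comparisons, and 1203 and 1697 clusters in both comparisons with normal aorta against 2656 and 4021. Clusters called in PPE vs. normal aorta were 4136 with array weights, 1608 with 1 symbol, 5207 at an adjusted p under 0.1, 985 with a 2-fold limit and 1413 to 3539 without each array, and in PPE + Lenva systemic vs. normal aorta 6833, 1256 and 2079 to 4392 for the last 3. In PPE vs. normal aorta the share of called clusters that were higher was 35.1%, 45.2% with quantile normalization, 42.8% with median-centring, 24.9% with the replicate block and 20.5% to 48.3% without each array. No gene had another cluster of its symbol, so that alternative was not run. Signals of single arrays were not analysed here for 6 of the 10 genes, and so no per-animal check was made of them.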
